A study of Solanum lycopersicum with 6 samples.

Results

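Genes annotated with the names of cellulose synthase, cellulose synthase-like or COBRA proteins were followed in tomato exocarp, the outer layer of the fruit. The fruit came from a SlNOR-like1 knockout and from wild type (WT). Members were chosen by name: 43 of the 21708 genes listed in any library had a description or best protein hit with the words cellulose synthase, COBRA or korrigan. Groups followed the best hit, or the description where the hit gave no such name, as for the 3 genes of subfamily C. The members were 6 primary-wall and 3 secondary-wall cellulose synthases (CESA), 19 cellulose synthase-like genes (CSL: 3 of subfamily C, 6 of D, 4 of E, 5 of G and 1 of H), 14 COBRA family genes and 1 gene described as CELLULOSE SYNTHASE INTERACTIVE 3, and 0 matched korrigan. The study compared 3 nor-like1 libraries, whose genotype is labelled as a knockout of SlNOR-like1, a NAC transcription factor, with 3 WT libraries, both from fruit at the stage labelled MG. The submitters' tables call the mutant nor-like1-1; the labels describe neither the edit nor how many lines were used. They also do not state whether the 3 libraries of a genotype are different plants, so each p-value speaks for variation among these libraries alone, and that may be technical.

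Cellulose is spun at the plasma membrane by complexes of several different CESA proteins. In Arabidopsis, CESA1, CESA3 and the CESA6 group, to which CESA2 and CESA5 belong, build the stretchable primary wall of growing cells, while CESA4, CESA7 and CESA8 work together on the thick secondary wall of xylem and fibres. CSL proteins are relatives in the same glycosyltransferase family: those of subfamily C make the glucan backbone of xyloglucan, and those of subfamily D act in tip growth and in building the new wall of dividing cells. COBRA is a lipid-anchored protein at the cell surface that Arabidopsis needs to lay down cellulose microfibrils in order. The epidermal cells of the peel lay their cuticle over such a wall.

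The 3 nor-like1 libraries held 8503210 to 11023036 expected counts and the 3 WT libraries 11459875 to 17578533, so the nor-like1 libraries were the shallower ones. SlNOR-like1 itself (Solyc07g063420.3) stood at 16.0, 10.9 and 11.7 FPKM (fragments scaled by transcript length and library size) in nor-like1 libraries and at 83.8, 75.2 and 81.2 FPKM in WT libraries. It was at 0.163 of WT (adjusted p = 0.000532), with each nor-like1 library below each WT library. On the first principal component of all tested genes, which held 70.1% of the variance, WT replicate 3 lay at 23.2, nearer to the nor-like1 libraries (-60.8 to -41.0) than WT replicates 1 and 2 did (74.6 and 61.8). FPKM values below are the authors' levels per gene length, in the order of replicates 1 to 3. Fold changes are nor-like1 over WT from edgeR's quasi-likelihood test on the expected counts, fitted to all 16380 genes that passed the low-count filter. Adjustment was by Benjamini and Hochberg over those genes, a gene counted as called below 0.05, and adjusted p-values are edgeR's except where limma or DESeq2 is written.

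Of the 26 members that passed the filter, 9 rose and 2 fell in nor-like1 exocarp, and 15 were not called. In whole tissue, fewer cells of a type and less RNA per cell cannot be told apart, here and in every level below. Among all genes tested, 10.5% were higher and 11.4% lower, and for the members the shares were 34.6% and 7.69%. The median log2 fold change was 0.28 over the 26 members and -0.01 over all genes. The 9 higher genes were 1 primary-wall CESA, 1 secondary-wall CESA, 2 COBRA genes, 2 CSL genes of subfamily G and 1 each of subfamilies C, D and E. The subfamily E gene among them (Solyc07g065650.2, CSLE1 by best hit) is of uncertain identity, since its description names another protein. COBRA and a CSL gene of subfamily E were the 2 that fell. The filter asked for about 0.890 CPM in 3 libraries, and 21 of the 26 members, 8 of the 11 called ones among them, reached it in all 6 libraries. The other 3 called members, all higher, passed through nor-like1, the genotype where they are high, so the count of 9 and the median are descriptions and support nothing further. They were COBRA-like protein 4 (Solyc03g114890.4), CSLD5 (Solyc09g075550.3) and xyloglucan glycosyltransferase 5 (Solyc08g006310.3), with adjusted p-values of 0.0304, 0.0161 and 0.0354 in the edgeR fit with no low-count filter. The nor-like1 and WT libraries did not overlap, in CPM (counts scaled by library size), for 11 members that were higher and 4 that were lower, where 20.5% and 22.4% of all genes behaved so. In the authors' deposited table, adjusted p-values below 0.05 were given to 11 members, and these 11 were the ones called here, in the same direction.

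**Figure D1:**
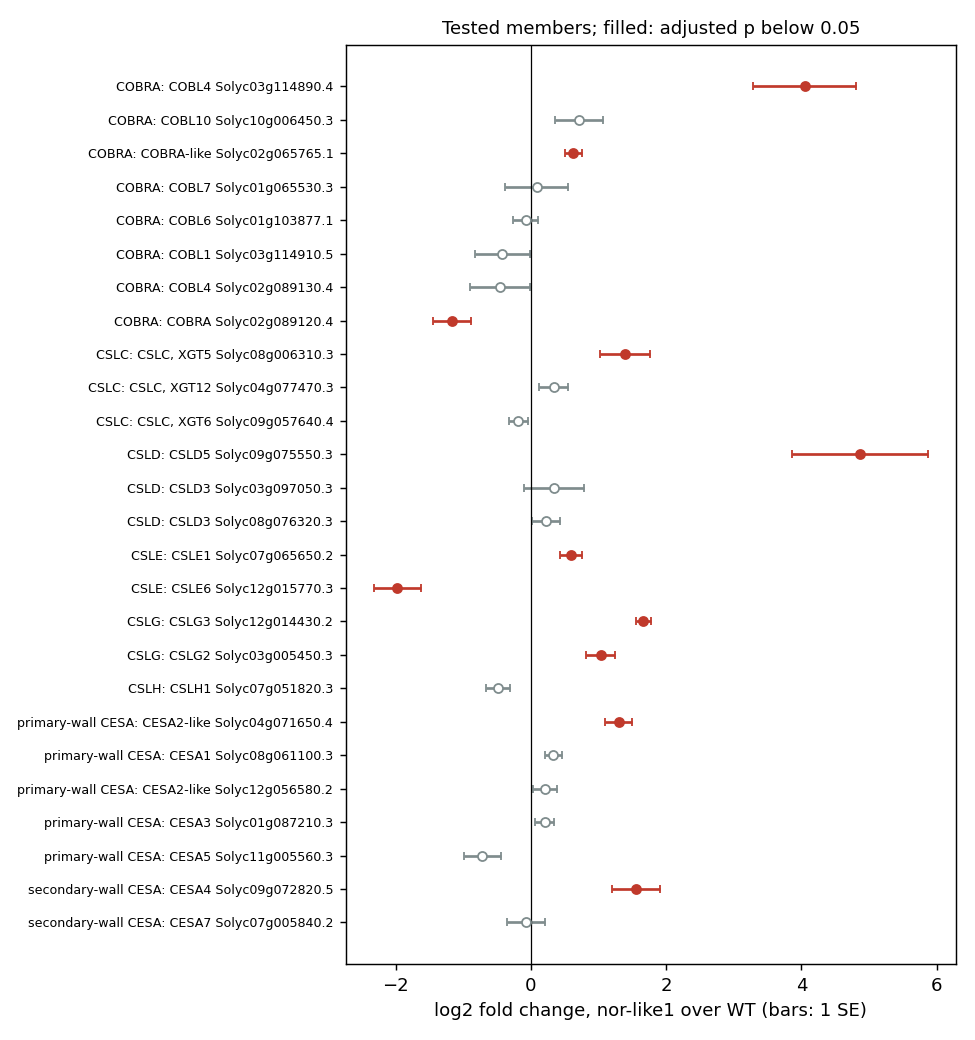
Log2 fold change, nor-like1 over WT, with its standard error, for the 26 members tested, grouped by family; filled red points have an adjusted p below 0.05. The 9 filled points right of 0 run from CSLE1, whose identity is uncertain, at 0.60 to CSLD5 at 4.86. The 2 left of 0 are COBRA and CSLE6.

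The calls rested on the full set of libraries for most members. Of the 11 called members, 3 were still called without WT replicate 2 (2 higher, 1 lower), 3 without nor-like1 replicate 3 (3 higher, 0 lower) and 5 without WT replicate 1 (4 higher, 1 lower). Without nor-like1 replicate 2, 3 were still called, all higher; COBRA and CSLE6 were lost, and the 1 member then called lower was CESA5 (Solyc11g005560.3), which was not called with all libraries. Over all genes the same omissions also cut the calls, to 596 higher and 543 lower without WT replicate 2. Without WT replicate 3 the 11 calls were kept. Without nor-like1 replicate 1, 9 members were higher and 2 lower, of which 10 were called with all libraries; CSLE1 was lost and a CSLD3 gene (Solyc08g076320.3) gained. In the fit without nor-like1 replicate 3, where 0 members were called lower, 2 were lower at an unadjusted p below 0.05. CESA2-like (Solyc04g071650.4) and CSLG3 (Solyc12g014430.2) were the 2 members called in every one of the 14 alternatives.

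Primary-wall cellulose synthases were led by CESA1 and CESA3, and 1 of the 5 tested rose, where 10.5% of all genes tested did. The CESA gene that rose, a CESA2-like subunit (Solyc04g071650.4), reached 44.7, 69.1 and 65.4 FPKM in nor-like1 libraries, against 21.0, 23.4 and 30.0 FPKM in WT libraries. The genotypes did not overlap, and the lowest nor-like1 library lay well above the highest WT one. The rise was 2.46-fold (log2 fold change 1.30, SE 0.204; adjusted p = 0.00798, and 8.32e-08 to 0.0438 over the alternatives).

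CESA1 (Solyc08g061100.3) was the most abundant member of all 43, at 166, 171 and 194 FPKM in nor-like1 libraries and 139, 156 and 135 FPKM in WT libraries. Its log2 fold change of 0.33 (SE 0.125) missed the threshold with an adjusted p of 0.0988, although each nor-like1 library lay above each WT library. DESeq2 as run here called it (adjusted p = 0.0433), and over the 14 alternatives its adjusted p ran from 0.0433 to 0.263. The authors' own DESeq2 run gave it an adjusted p of 0.0682. CESA3 (Solyc01g087210.3), its partner in the Arabidopsis complex, stood at 136.6, 139.2 and 162.5 FPKM in nor-like1 libraries and 135.2, 139.7 and 112.5 FPKM in WT libraries. The genotypes overlapped for CESA3 (log2 fold change 0.20, SE 0.142; adjusted p = 0.335).

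The second CESA2-like gene (Solyc12g056580.2) had 14.2, 22.5 and 20.9 FPKM in nor-like1 libraries and 15.5, 17.3 and 17.8 FPKM in WT libraries. These ranges overlapped (log2 fold change 0.22, SE 0.177; adjusted p = 0.409), with nor-like1 replicate 1 the lowest of all 6 libraries. Whether both CESA2-like genes differ in their response was not tested. CESA5 (Solyc11g005560.3) measured 1.04, 2.38 and 1.66 FPKM in nor-like1 libraries, each below the 2.77, 2.86 and 2.88 FPKM of the WT libraries. Its log2 fold change of -0.72 (SE 0.277) had an adjusted p of 0.105, which was 0.0479 without nor-like1 replicate 2 and up to 0.236 over the other alternatives. The sixth gene, a probable CESA3 (Solyc04g072790.2), had 1 count in nor-like1 replicate 1 and 1 count in WT replicate 2 and was not tested.

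**Figure D2:**
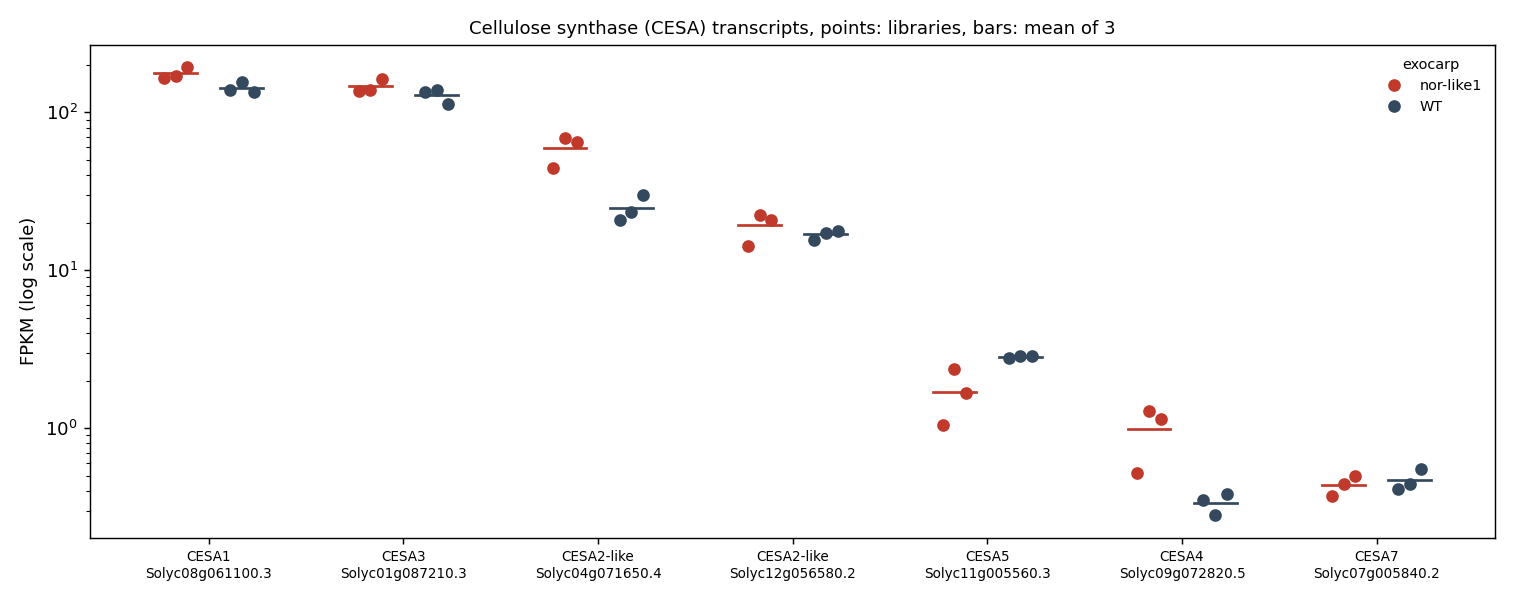
FPKM on a log axis of the 7 CESA genes that passed the filter, nor-like1 left and WT right of each pair; points are libraries and bars their means. CESA1 and CESA3 stand above 100 FPKM in each library, the 2 secondary-wall genes at the right stay below 1.5 FPKM, and the nor-like1 points of CESA2-like Solyc04g071650.4 and of CESA4 lie above their WT points.

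As a description of the make-up of the pool, each gene was also expressed as a percent of the summed FPKM of the 6 primary-wall genes. The sum was 363, 404 and 444 FPKM in nor-like1 libraries and 313, 339 and 298 FPKM in WT libraries. CESA2-like Solyc04g071650.4 made up 12.3, 17.1 and 14.7% of it in nor-like1 libraries and 6.70, 6.91 and 10.1% in WT libraries. CESA1 held 43.9 ± 1.81% in nor-like1 and 45.2 ± 0.835% in WT (SD, n = 3 each), and CESA3 held 36.2 ± 1.61% in nor-like1 and 40.7 ± 2.77% in WT. CESA5 stayed below 1% throughout, at 0.416 ± 0.156% in nor-like1 and 0.898 ± 0.0621% in WT.

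**Figure D3:**
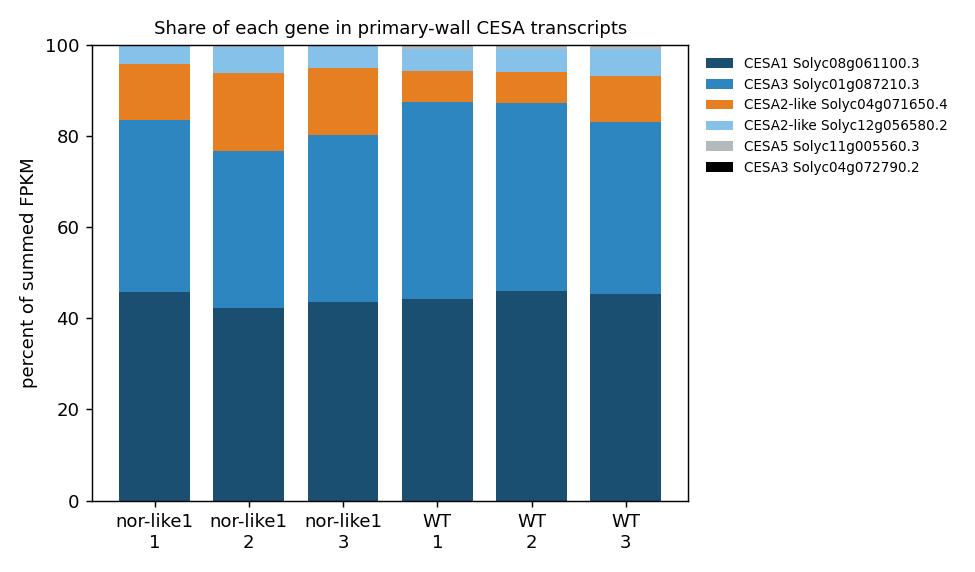
Percent of the summed FPKM of the 6 primary-wall CESA genes taken by each gene, 1 bar per library, with the nor-like1 libraries left. The orange segment, CESA2-like Solyc04g071650.4, runs from 12.3 to 17.1% in nor-like1 and from 6.70 to 10.1% in WT, while CESA1 and CESA3 fill most of each bar.

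Secondary-wall cellulose synthases were scarce in both genotypes, and 1 of the 2 tested rose, where 10.5% of all genes tested did. CESA4 (Solyc09g072820.5) had 0.520, 1.29 and 1.15 FPKM in nor-like1 libraries, against 0.350, 0.280 and 0.380 FPKM in WT libraries. The groups did not overlap, with nor-like1 replicate 1 nearest to WT (2.94-fold, log2 SE 0.354; adjusted p = 0.0235, and 0.00146 to 0.0910 over the alternatives). The call was lost without nor-like1 replicate 2 (0.0872), nor-like1 replicate 3 (0.0797), WT replicate 1 (0.0717) or WT replicate 2 (0.0910), and with limma on log2(FPKM + 1) and log2(FPKM + 0.1) (0.0720 and 0.0639). On log2(FPKM + 1) its log2 fold change was 0.55 in place of 1.55, since the added 1 shrinks changes of low genes. Its annotated length is 7485 bases, against 3262 and 4235 bases for CESA8 and CESA7, and a longer annotation gives a lower FPKM for the same count.

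CESA7 (Solyc07g005840.2) had 0.37, 0.44 and 0.50 FPKM in nor-like1 libraries and 0.41, 0.44 and 0.55 FPKM in WT libraries, fully overlapping (log2 fold change -0.070, SE 0.278; adjusted p = 0.875). Its sign turned without nor-like1 replicate 1 (0.034) and without WT replicate 3 (0.047). CESA8 (Solyc02g072240.3) had 0 to 1 counts per nor-like1 library and 1 to 2 per WT library and was not tested. The 3 secondary-wall genes together summed to 0.890, 1.76 and 1.69 FPKM in nor-like1 libraries and 0.780, 0.770 and 0.970 FPKM in WT libraries, far under the primary-wall sum in each library.

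Genes matched by names tied to xylem, where such walls are built, were read beside these values, leaving out the CESA and COBRA genes. Whether each matched gene is particular to xylem was not tested. Of 22 genes matched, 12 were tested, with 2 higher and 1 lower. The summed level of the 22 was 222, 258 and 271 FPKM in nor-like1 libraries and 297, 269 and 239 FPKM in WT libraries. As a sum over the whole list the groups overlapped, but genes named bifunctional nuclease weighed heavily in it. The most abundant of these (Solyc04g080700.4) had 65.4, 79.5 and 82.4 FPKM in nor-like1 libraries and 128.7, 119.3 and 90.3 FPKM in WT libraries. The next (Solyc12g089220.3) had 34.3, 27.2 and 29.8 FPKM in nor-like1 libraries and 55.9, 40.5 and 20.0 FPKM in WT libraries. The sum without these genes was not computed. Some matched genes were at or near 0: both genes for fasciclin-like arabinogalactan protein 11 reached at most 0.290 FPKM, and laccase-4-like and laccase-17-like genes at most 0.220 FPKM. Others were well above 0, such as an IRX10L gene (Solyc12g042360.3). That gene had 14.7, 18.8 and 20.2 FPKM in nor-like1 libraries and 12.9, 14.0 and 16.9 FPKM in WT libraries. Of the 2 that rose, a xylem cysteine proteinase 2-like gene (Solyc02g076730.4) had 21.2, 28.7 and 36.0 FPKM in nor-like1 libraries and 3.15, 2.96 and 3.15 FPKM in WT libraries (log2 fold change 3.19, adjusted p = 0.000552). The other (Solyc04g080873.2) is described as xylem cysteine proteinase 1, but its best hit is zingipain-2. It had 23.7, 29.3 and 27.9 FPKM in nor-like1 libraries. In WT libraries it had 18.6, 17.9 and 19.8 FPKM (log2 fold change 0.55, adjusted p = 0.0175). The 1 that fell was IRX7 (Solyc11g066320.2), with 9.39, 6.34 and 9.05 FPKM in nor-like1 libraries and 28.0, 26.5 and 15.6 FPKM in WT libraries (log2 fold change -1.48, adjusted p = 0.0137). The part of the xylem genes in the CESA4 result was not tested. Of 20 genes matched by phloem names, 9 were tested, with 1 higher and 1 lower. Their sums of 123 to 223 FPKM in nor-like1 libraries and 128 to 178 FPKM in WT libraries, over all 20, overlapped. The tested ones were named for phloem protein 2, while those named sieve element occlusion were untested, at most at 0.39 FPKM. Whether the sums follow phloem was not tested. Of 23 genes matched by epidermis names, which include wax synthesis genes, 13 were tested, with 6 higher and 1 lower. Whether each marks the outer cell layer was not tested, and 1 described as ECERIFERUM 7 (Solyc05g047420.4) has the best hit RRP45A. Beside the xylem, phloem and epidermis counts, the shares over all genes tested were 10.5% higher and 11.4% lower. The 23 epidermis genes summed to 1308, 1134 and 1408 FPKM in nor-like1 libraries and 639, 713 and 561 FPKM in WT libraries. ECERIFERUM 3 (Solyc03g117800.4), a wax synthesis gene, carried most of that gap, at 753.9, 749.4 and 920.8 FPKM in nor-like1 libraries and 259.3, 343.5 and 233.6 FPKM in WT libraries. Without it the other 22 genes summed to 553.6, 384.8 and 487.3 FPKM in nor-like1 libraries and 379.2, 369.1 and 326.9 FPKM in WT libraries. The 1 gene that fell, an HDG1-like homeobox gene (Solyc06g035940.3), had 5.25, 7.25 and 21.3 FPKM in nor-like1 libraries and 100.2, 111.0 and 96.2 FPKM in WT libraries (log2 fold change -3.17, adjusted p = 0.0125). MERISTEM L1 (Solyc10g005330.3) had 10.5, 13.7 and 13.2 FPKM in nor-like1 libraries and 12.4, 13.1 and 13.9 FPKM in WT libraries (log2 fold change -0.09, adjusted p = 0.647). A MERISTEM L1-like gene (Solyc03g031760.5) rose (log2 fold change 1.04, adjusted p = 0.0235). The part of these genes in the members' results was not tested.

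The COBRA family held calls in both directions: of 8 tested genes 2 rose and 1 fell. Over all genes tested, 10.5% rose and 11.4% fell. COBRA (Solyc02g089120.4), the named homologue of the Arabidopsis protein, fell to 44.1, 25.4 and 28.4 FPKM in nor-like1 libraries, against 86.2, 83.2 and 53.2 FPKM in WT libraries. Each nor-like1 library lay below each WT library, and nor-like1 replicate 1 and WT replicate 3 were the closest of the 2 groups. The level was 0.446 of WT (log2 fold change -1.17, SE 0.277; adjusted p = 0.0298, and 0.000277 to 0.102 over the alternatives). It was not called without nor-like1 replicate 2 (0.0999), nor-like1 replicate 3 (0.0994), WT replicate 1 (0.0857) or WT replicate 2 (0.102).

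COBRA-like (Solyc02g065765.1), the gene of the family with the highest mean level, moved the other way. It reached 87.7, 103.2 and 110.9 FPKM in nor-like1 libraries and 61.9, 70.5 and 65.6 FPKM in WT libraries, with no overlap. The rise was 1.55-fold (log2 SE 0.122; adjusted p = 0.0144, and 0.000199 to 0.0639 over the alternatives). Its call was lost without nor-like1 replicate 2 (0.0545), nor-like1 replicate 3 (0.0557), WT replicate 1 (0.0639) or WT replicate 2 (0.0502). In the summed FPKM of the 14 COBRA genes, COBRA-like held 51.8, 54.0 and 51.4% in nor-like1 libraries and 28.0, 37.7 and 42.3% in WT libraries. COBRA held 26.1, 13.3 and 13.2% in nor-like1 libraries and 39.0, 44.5 and 34.3% in WT libraries. The sum itself was 192 ± 23.2 FPKM in nor-like1 and 188 ± 33.1 FPKM in WT (SD, n = 3 each).

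**Figure D4:**
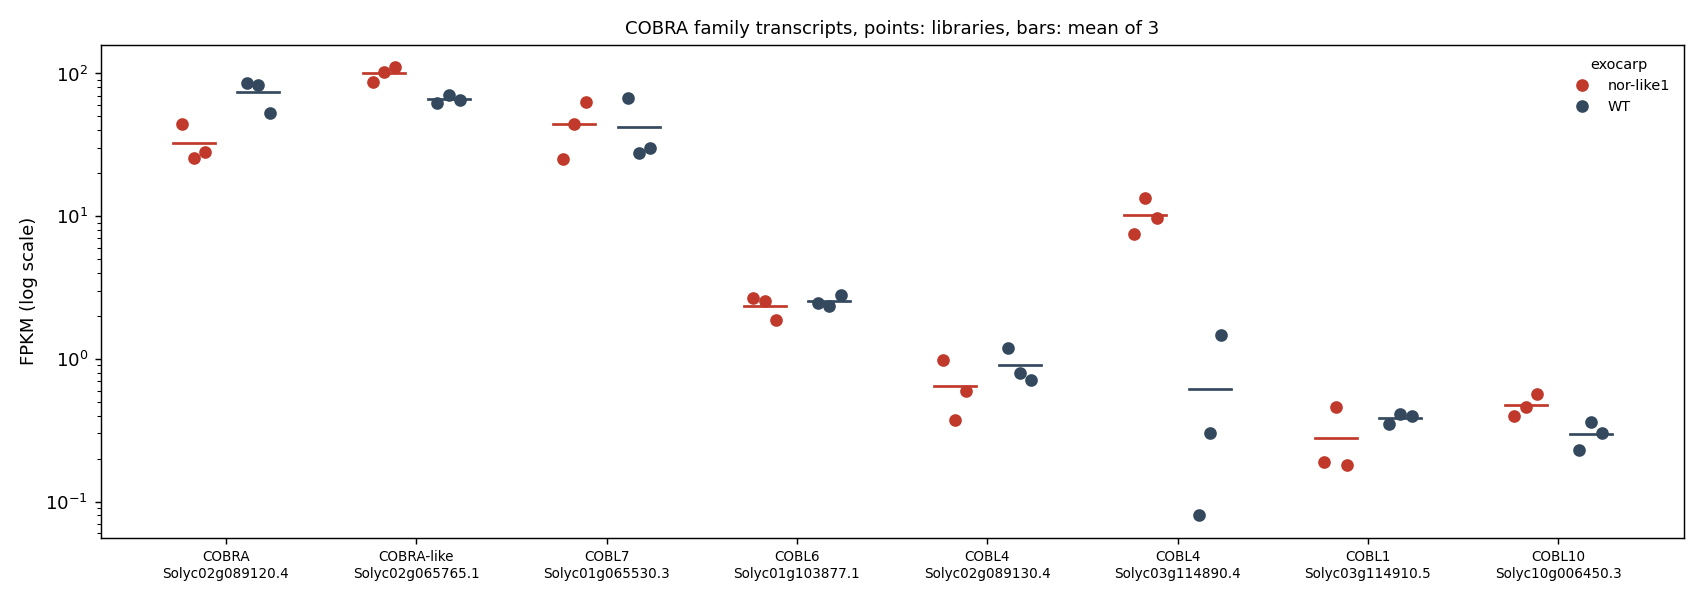
FPKM on a log axis of the 8 COBRA family genes that passed the filter, nor-like1 left and WT right of each pair; points are libraries and bars their means. COBRA is lower and COBRA-like and COBL4 Solyc03g114890.4 are higher in nor-like1, without overlap, and the COBL7 points spread from 25.2 to 67.6 FPKM across both genotypes.

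A COBRA-like protein 4 gene (Solyc03g114890.4) had the widest fold change of the family. It reached 7.53, 13.5 and 9.77 FPKM in nor-like1 libraries and was at 0.0800, 0.300 and 1.47 FPKM in WT libraries. WT replicate 3 was the highest of the WT libraries and the 1 WT library to reach the filter's level, and each WT library lay below each nor-like1 library. In Arabidopsis COBRA-like protein 4 serves secondary-wall cellulose. Its counts summed to 455 in nor-like1 and to 42 in WT (16.5-fold, log2 SE 0.762; adjusted p = 0.0168, and 1.04e-07 to 0.0702 over the alternatives). Omitting WT replicate 3 gave a log2 fold change of 5.88 in place of 4.05, and limma on log2(FPKM + 1) gave 2.86. The call was lost without nor-like1 replicate 2 (0.0650), nor-like1 replicate 3 (0.0526) or WT replicate 2 (0.0702).

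By gene number Solyc03g114890.4 sits beside 2 further COBRA family genes on chromosome 3. COBRA-like protein 4 gene Solyc03g114900.3 had at most 1 count in any library, and COBRA-like protein 1 gene Solyc03g114910.5 had 0.190, 0.460 and 0.180 FPKM in nor-like1 libraries and 0.350, 0.410 and 0.400 FPKM in WT libraries (adjusted p = 0.489). RefSeq's table of assembly SLM_r2.1 lists the genes matched to Solyc03g114900.3 and Solyc03g114910.5 as direct neighbours. Another COBRA-like protein 4 gene, Solyc02g089130.4, numbered next to COBRA on chromosome 2, had 0.980, 0.370 and 0.600 FPKM in nor-like1 libraries and 1.20, 0.790 and 0.710 FPKM in WT libraries. Its groups overlapped (log2 fold change -0.46, SE 0.447; adjusted p = 0.486). Yet another, Solyc03g070440.4, had at most 2 counts in a library.

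COBRA-like protein 7 (Solyc01g065530.3) was abundant and uneven: 25.2, 44.3 and 62.7 FPKM in nor-like1 libraries and 67.6, 27.9 and 30.0 FPKM in WT libraries. High and low libraries occurred in both genotypes (log2 fold change 0.09, SE 0.466; adjusted p = 0.904), and the sign turned without nor-like1 replicate 3 (-0.24), WT replicate 2 (-0.13) or WT replicate 3 (-0.12). COBRA-like protein 6 (Solyc01g103877.1) measured 2.67, 2.55 and 1.86 FPKM in nor-like1 libraries and 2.48, 2.33 and 2.79 FPKM in WT libraries (log2 fold change -0.073, SE 0.184; adjusted p = 0.799), and without nor-like1 replicate 3 the sign turned (0.074). It shares its RefSeq gene with the untested Solyc01g103860.4, so counts may be divided between both. COBRA-like protein 10 (Solyc10g006450.3), known from pollen tube growth in Arabidopsis, had 35 counts over the nor-like1 and 32 over the WT libraries (log2 fold change 0.71, SE 0.359; adjusted p = 0.191).

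Of the cellulose synthase-like genes of subfamily G, 2 could be tested and both rose, where 10.5% of all genes tested did. CSLG3 (Solyc12g014430.2) stood at 26.5, 27.7 and 30.2 FPKM in nor-like1 libraries, against 8.37, 8.74 and 9.96 FPKM in WT libraries. The libraries of each genotype lay close together and far from the other genotype. The rise was 3.17-fold (log2 fold change 1.66, SE 0.107; adjusted p = 0.000552, and 4.90e-26 to 0.00783 over the alternatives), the lowest adjusted p of any member. CSLG2 (Solyc03g005450.3) had 3.11, 3.73 and 5.02 FPKM in nor-like1 libraries and 2.12, 1.90 and 1.85 FPKM in WT libraries, again with no overlap. It rose 2.04-fold (log2 SE 0.215; adjusted p = 0.0179, and 0.00316 to 0.0710 over the alternatives) and was not called without nor-like1 replicate 2 (0.0571), nor-like1 replicate 3 (0.0526) or WT replicate 2 (0.0710).

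The other 3 CSLG3 genes, Solyc08g082640.2, Solyc08g082660.2 and Solyc08g082670.4, form a cluster on chromosome 8 in RefSeq's SLM_r2.1 order, with at most 1 gene between any pair. They had at most 2 counts in a library and were not tested. The summed level of subfamily G was 29.6, 31.6 and 35.3 FPKM in nor-like1 libraries and 10.5, 10.6 and 11.9 FPKM in WT libraries, of which CSLG3 Solyc12g014430.2 made up 79.8 to 89.5%.

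Subfamily E held the member with the strongest fall. CSLE6 (Solyc12g015770.3) was at 1.32, 1.12 and 1.18 FPKM in nor-like1 libraries and at 6.05, 5.79 and 2.62 FPKM in WT libraries. WT replicate 3 lay below the other two WT libraries but above each nor-like1 library. The level was 0.255 of WT (log2 fold change -1.97, SE 0.352; adjusted p = 0.0115, and 2.03e-05 to 0.0554 over the alternatives). It was not called without nor-like1 replicate 2 (0.0554) or nor-like1 replicate 3 (0.0518), and limma on log2(FPKM + 1) gave a log2 fold change of -1.34.

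CSLE1 (Solyc07g065650.2) rose to 56.9, 59.4 and 58.9 FPKM in nor-like1 libraries, against 32.6, 34.3 and 50.7 FPKM in WT libraries, where WT replicate 3 was close to nor-like1. The rise was 1.51-fold (log2 SE 0.163; adjusted p = 0.0407, and 0.00367 to 0.137 over the alternatives). Among the omissions of 1 library it was called without WT replicate 3 (0.00367), and not without nor-like1 replicates 1, 2 and 3 (0.0579, 0.120 and 0.105) or WT replicates 1 and 2 (0.120 and 0.137); limma on log2(FPKM + 0.1) gave 0.0507. The identity of this gene is uncertain. Its description names the transmembrane emp24 protein p24beta2 and its length is 982 bases, whereas the neighbouring CSLE1 gene Solyc07g065660.5, with the same RefSeq hit, is 2426 bases long. Solyc07g065660.5 had 9, 6 and 2 counts in nor-like1 libraries and 1, 0 and 3 counts in WT libraries and did not pass the filter.

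**Figure D5:**
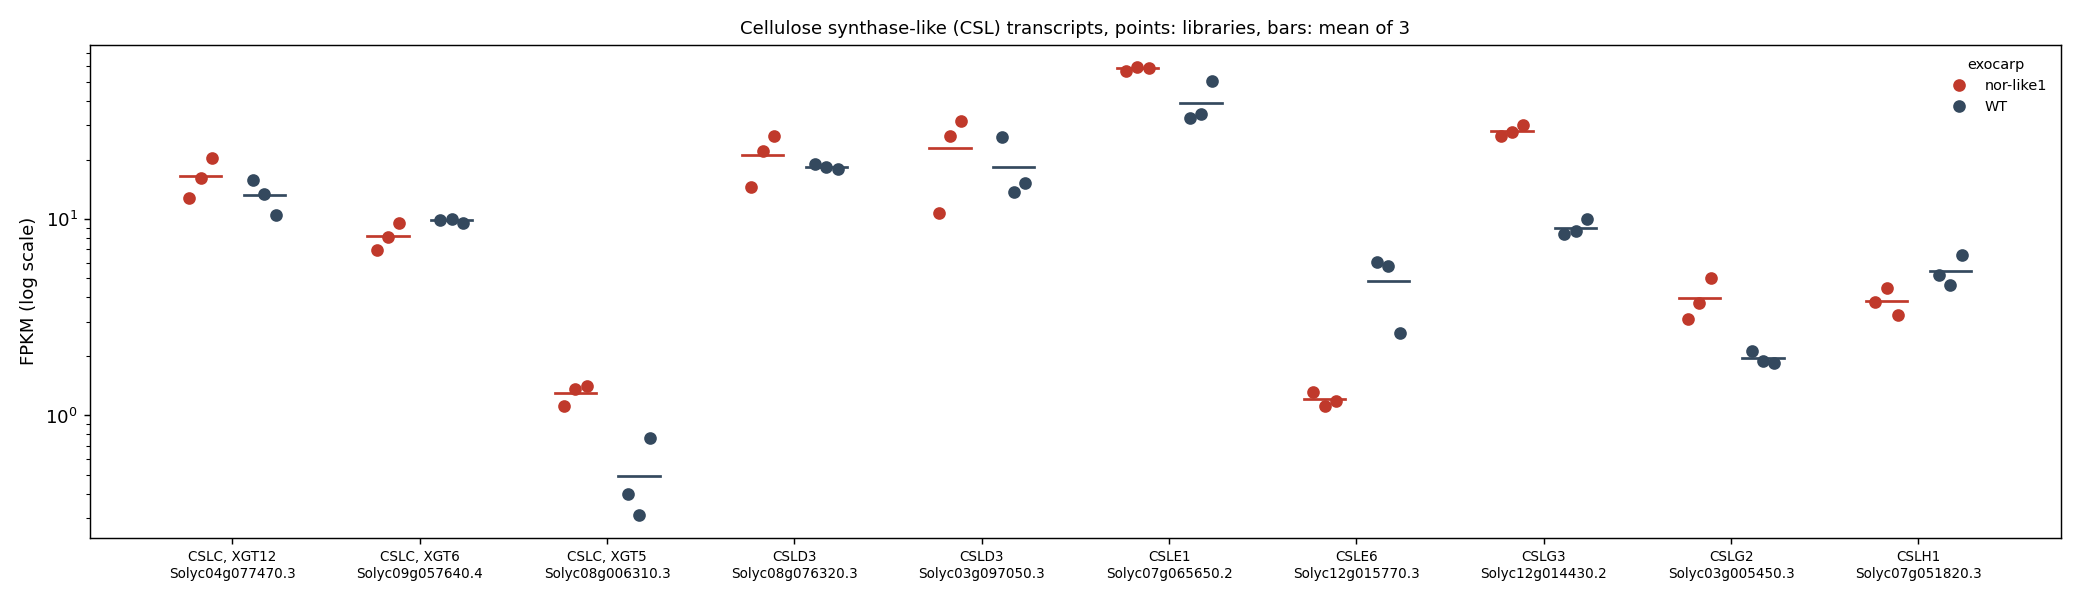
FPKM on a log axis of 10 of the 11 CSL genes that passed the filter, nor-like1 left and WT right of each pair; points are libraries and bars their means. CSLD5 is left out because WT replicate 1 was at 0. CSLG3 and CSLG2 lie higher and CSLE6 lower in nor-like1 without overlap, and the CSLD3 genes and CSLC gene Solyc04g077470.3 overlap between genotypes. For CSLC gene Solyc09g057640.4 the highest nor-like1 point (9.51 FPKM) lies just below the lowest WT point (9.53 FPKM), while its CPM values overlap.

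Subfamily C, which makes the xyloglucan backbone, had 3 members, all tested, and the rarest of them rose. Over all genes tested, 10.5% rose. The probable xyloglucan glycosyltransferase 5 gene (Solyc08g006310.3) had 1.12, 1.37 and 1.41 FPKM in nor-like1 libraries and 0.400, 0.310 and 0.770 FPKM in WT libraries. The groups did not overlap, with WT replicate 3 the highest of WT, and 2 of the 3 WT libraries reached the filter's level (2.63-fold, log2 SE 0.369; adjusted p = 0.0365, and 0.0103 to 0.114 over the alternatives). It was not called without nor-like1 replicate 2 (0.114), nor-like1 replicate 3 (0.103), WT replicate 1 (0.114) or WT replicate 2 (0.112), and its log2 fold change of 1.40 was 0.63 on log2(FPKM + 1). The dominant gene of the subfamily, xyloglucan glycosyltransferase 12 (Solyc04g077470.3), measured 12.9, 16.1 and 20.6 FPKM in nor-like1 libraries and 15.8, 13.4 and 10.5 FPKM in WT libraries, which overlap (log2 fold change 0.34, SE 0.218; adjusted p = 0.299). Xyloglucan glycosyltransferase 6 (Solyc09g057640.4) measured 6.94, 8.07 and 9.51 FPKM in nor-like1 libraries and 9.92, 10.04 and 9.53 FPKM in WT libraries (log2 fold change -0.18, SE 0.134; adjusted p = 0.355).

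Subfamily D was led by a pair of CSLD3 genes, whose Arabidopsis counterpart is needed for root hair growth, and neither was called. Solyc03g097050.3 had 10.8, 26.5 and 31.7 FPKM in nor-like1 libraries and 26.1, 13.7 and 15.3 FPKM in WT libraries (log2 fold change 0.34, SE 0.446; adjusted p = 0.613). Its highest and lowest libraries were both nor-like1, and in each genotype the libraries high or low for it were also the ones high or low for COBRA-like protein 7. Solyc08g076320.3 had 14.5, 22.3 and 26.5 FPKM in nor-like1 libraries and a narrow 19.1, 18.4 and 18.0 FPKM in WT libraries. Its log2 fold change was 0.22 (SE 0.210; adjusted p = 0.474), and without nor-like1 replicate 1, the lowest library, it was 0.44 (adjusted p = 0.0417; 0.0417 to 0.929 over the alternatives).

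CSLD5 (Solyc09g075550.3), which in Arabidopsis acts in building the cell plate of dividing cells, rose over a WT level near 0. It had 1.5, 0.32 and 0.36 FPKM in nor-like1 libraries and 0, 0.05 and 0.03 FPKM in WT libraries. Its counts summed to 90 in nor-like1 and to 4 in WT, and nor-like1 replicate 1 gave 65 of the 90; 0 WT libraries reached the filter's level. The fitted log2 fold change of 4.86 (SE 1.00; adjusted p = 0.0188, and 6.45e-05 to 0.1003 over the alternatives) is therefore uncertain in size. It was 3.76 without nor-like1 replicate 1, 4.22 without WT replicate 1 (adjusted p = 0.0585), 5.39 without WT replicate 2 (0.0649), 2.44 with limma on log2(FPKM + 0.1) and 0.68 on log2(FPKM + 1) (adjusted p = 0.1003). In RefSeq's SLM_r2.1 order its neighbour is a COBRA-like protein 7 gene (Solyc09g075540.1), which had at most 5 counts in a library.

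CSLH1 (Solyc07g051820.3) measured 3.80, 4.43 and 3.25 FPKM in nor-like1 libraries, each below the 5.19, 4.63 and 6.53 FPKM of the WT libraries. Its log2 fold change of -0.48 (SE 0.181) had an adjusted p of 0.0963. Beside the members named here, the untested ones were scarce: the 17 members under the filter had at most 14.2 counts in a library and 1 to 45 counts in all 6, and CELLULOSE SYNTHASE INTERACTIVE 3 (Solyc06g060160.3), in Arabidopsis a link between the synthase complex and microtubules, had 1 count in nor-like1 replicate 1 and 1 in WT replicate 1. Over a whole library 3 counts correspond to between 0.171 and 0.353 CPM, for counting error only.

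For 8 of the 11 called members WT replicate 3 was the WT library nearest to the nor-like1 mean, a share of 72.7%, against 63.4% of all 3585 genes called. Its part in the results was not tested, and without it the same 11 members were called.

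Other genes of cellulose supply and deposition were matched by name, without the members. Of 40 such genes 28 were tested, 3 rose, 3 fell and 22 were not called. Among all genes tested, 10.5% were higher and 11.4% lower, and this list lay near those shares. Sucrose synthase, which can deliver UDP-glucose to the complex, had 0 of 4 tested genes called by edgeR, 2 with an unadjusted p below 0.05 in the higher direction, 2 called higher by DESeq2 and 0 by limma. The most abundant of the sucrose synthases in nor-like1 (Solyc07g042550.3) measured 169, 108 and 131 FPKM in nor-like1 libraries and 75.3, 88.4 and 114 FPKM in WT libraries (log2 fold change 0.57, adjusted p = 0.0888). UDP-glucose pyrophosphorylase, another source of that sugar, had 0 of 2 tested genes called by edgeR, 0 with an unadjusted p below 0.05, and 0 called by DESeq2 or limma. The endoglucanase 25-like gene (Solyc05g005080.3), whose Arabidopsis counterpart is KORRIGAN, the membrane cellulase of the complex, measured 269, 264 and 290 FPKM in nor-like1 libraries and 319, 369 and 291 FPKM in WT libraries. That difference was not called (log2 fold change -0.23, adjusted p = 0.259); the nor-like1 libraries lay below WT in FPKM by less than 1 unit at the closest pair and overlapped with WT in CPM.

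Of 2 chitinase-like protein 1 genes, known in Arabidopsis for a part in cellulose assembly, the abundant one (Solyc09g098540.3) overlapped between genotypes (adjusted p = 0.362). The other (Solyc12g098810.2) fell to 16.1, 17.6 and 14.9 FPKM in nor-like1 libraries, against 21.8, 26.5 and 27.7 FPKM in WT libraries (log2 fold change -0.62, adjusted p = 0.0160). Genes named for irregular xylem, a group of xylan synthesis enzymes, also stand among the xylem-named genes above. Of 7 tested 1 fell, where 11.4% of all genes tested did. IRX7 (Solyc11g066320.2) had 9.39, 6.34 and 9.05 FPKM in nor-like1 libraries and 28.0, 26.5 and 15.6 FPKM in WT libraries (log2 fold change -1.48, adjusted p = 0.0137).

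Tubulins form the microtubules that guide the synthase complex, and of 11 tested 2 rose and 1 fell. The shares over all genes tested were 10.5% higher and 11.4% lower. A beta-2 chain-like gene (Solyc10g086760.2) rose to 9.63, 9.84 and 9.17 FPKM in nor-like1 libraries, against 4.3, 4.62 and 7.55 FPKM in WT libraries. Its log2 fold change was 0.82 (adjusted p = 0.0358), and it reached the filter's level in each library of both genotypes. A beta-1 chain (Solyc06g035970.3) fell to 110, 114 and 133 FPKM in nor-like1 libraries, against 174, 197 and 205 FPKM in WT libraries (log2 fold change -0.66, adjusted p = 0.0118). An alpha chain-like gene (Solyc02g087880.3) had 13.5, 2.70 and 3.02 FPKM in nor-like1 libraries and 0.220, 0.0600 and 0.390 FPKM in WT libraries (log2 fold change 4.77, adjusted p = 0.0176). The 1 gene of the KIN-4 kinesins (Solyc04g076310.4), the type that includes Arabidopsis FRA1, had 1.12, 0.320 and 0.460 FPKM in nor-like1 libraries and 0.09, 0.05 and 0.15 FPKM in WT libraries (log2 fold change 2.67, adjusted p = 0.0251). In both of these, as in CSLD5, nor-like1 replicate 1 was the highest library and 0 WT libraries reached the filter's level, so both were tested only through the genotype where they are high.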

How the data were processed

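Per the labels' protocols, total RNA was extracted with Trizol and libraries were made with MGI protocols. For each library the authors deposited expected counts, which need not be whole, and FPKM per gene, per the file headers. The submitters' processing notes list RSEM, Bowtie2, HISAT2 and StringTie. No genome build, strand setting or tool version is stated there. Each file lists only genes above 0, so a gene missing from a library was set to 0. The authors also deposited a DESeq2 table with log2 fold changes, p-values and adjusted p-values.

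Expected counts were rounded and tested with edgeR 4.0.16 in R 4.3.3 (filterByExpr, TMM factors, robust quasi-likelihood F test, genotype as the term), after a check on simulated counts. SE is the absolute log2 fold change over the square root of F. DESeq2 1.42.0 and limma 3.58.1 served as alternatives. RefSeq names of assembly SLM_r2.1 were matched by protein accession for 38 of 43 members; as that build may differ from the authors', no coordinates are given. Members, groups and lists were chosen with earlier results of these data known. Named genes are SlNOR-like1, each CESA gene, each other called member and the most abundant member of each group; further genes were added after their values were seen. The pattern for secondary-wall regulators took 8 genes described as stress response protein NST1 or otherwise unrelated (7 tested, 1 lower); these were left out of the 40 pathway genes. Names of companion of cellulose synthase and STELLO matched 0 genes. Reads shared by near-identical genes may have been split among them. Libraries of 1 genotype differed by a chi-square per gene of 10.5 to 47.0, so no pair was merged.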

Additional observations from a re-analysis of the deposited data

How the results depend on the processing

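The 14 alternatives were 8 of normalization, filter, test, unit and replicate block, and 6 omissions of 1 library. Under the 8, the members called numbered 7 to 10 higher and 2 lower; the 11 called members were kept in 6 of the 8, and 9 of them with limma on log2(FPKM + 1) and on log2(FPKM + 0.1). With 1 library left out, genes called ranged from 596 to 2352 higher and 543 to 2390 lower over all genes, and from 2 to 9 higher and 0 to 2 lower among the members. Of the 363 log2 fold changes of single members computed, 6 changed sign, each in a gene not called: COBRA-like protein 7 with -0.24 to -0.12 (-0.24 to 0.63 over the omissions), COBRA-like protein 6 with 0.074 (-0.17 to 0.074) and CESA7 with 0.034 and 0.047 (-0.19 to 0.047). The filter of 1 CPM in 3 libraries removed COBRA-like protein 10, so no value was computed there.

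The replicate block called 1364 genes higher and 1262 lower, and 9 and 2 members, where the fit without it called 1713 and 1872, and 9 and 2. The labels do not say whether the numbers pair the libraries. Deviations of same-numbered libraries from their genotype's mean correlated at 0.222, -0.230 and 0.0177, and 1 of 3 nor-like1 libraries correlated best with its own number. With only 3 libraries behind each mean, these correlations cannot decide whether libraries were paired. Depth limits the genes with few counts, CSLD5, CESA4 and the 17 untested members.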
